A study of Mus musculus with 6 samples.

Results

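The small leucine-rich proteoglycans (SLRPs) are secreted matrix proteins built on a short protein core of leucine-rich repeats, and 10 SLRP genes (*Dcn*, *Bgn*, *Aspn*, *Fmod*, *Lum*, *Prelp*, *Kera*, *Omd*, *Ogn* and *Epyc*) were followed here in healing tendon. They were taken by symbol from the 53819 genes of the deposited count table, and all 10 were in the table and passed the filter on low counts, among 17496 genes tested. In tendon, SLRPs sit on the surface of collagen fibrils and are known for their part in setting fibril diameter and spacing. Several members also bind growth factors of the TGF-β family, and biglycan can signal through Toll-like receptors. Decorin, biglycan and asporin form class I, fibromodulin, lumican, PRELP, keratocan and osteoadherin form class II, and osteoglycin and epiphycan belong to class III.

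Bulk RNA-seq was performed on flexor digitorum longus (FDL) tendons of 3 Scx-Cre+; DTR F/+ mice (DTR) and 3 Scx-Cre-; DTR F/+ littermates (WT), with 1 tendon per library. Mice of both groups were 10 to 12 weeks old, had the FDL tendon cut and repaired, carried the same Rosa-DTR allele behind a STOP cassette, and received 5 daily injections of 100 ng diphtheria toxin (DT) from day 14 to day 18 after surgery. Tendons were taken on day 28 after surgery, a time that the sample titles count from depletion. The non-inducible Scx-Cre opens the toxin receptor in every cell of the *Scx* lineage, no depletion efficiency is given for these tendons in the sources used here, and in bulk RNA fewer cells of a type and less RNA per cell cannot be told apart.

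Between 42744138 and 48854310 counts were on genes in each library. Values are given below as normalized counts, which are TMM-scaled counts at the mean library size, always in the order of replicates 1, 2 and 3. The labelled tissue was checked with 7 tendon markers, led by *Col1a1*. Together they held 1.67% to 1.95% of the counts in WT and 2.00% to 2.66% in DTR libraries, and none of them was at 0. This sum mostly reflects *Col1a1* and *Thbs4* (means of 554530 and 324740 normalized counts). In DTR tendons 6 of the 7 were fitted higher and *Tppp3* lower (log2 fold change -0.43). *Scx*, the transcription factor gene of the depleted lineage, was at 2201.6, 2703.4 and 3064.1 in the WT tendons and at 3476.1, 3407.3 and 3531.8 in the DTR tendons. *Scx* was thus above every WT library in every DTR library 10 days after the last DT injection (log2 fold change 0.39 ± 0.12 (SE), edgeR adjusted p = 0.371). *Hbegf*, the endogenous mouse gene of heparin-binding EGF-like growth factor, overlapped between the groups (log2 fold change 0.20, standard error 0.36), which does not measure the transgene.

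Some libraries stood apart by genes of other cell types, and some of these genes separated the groups. The summed share of 20 skeletal muscle genes, led by *Myh1*, was 2.91%, 2.64% and 2.13% in the WT libraries but 0.382%, 2.63% and 0.714% in the DTR libraries, and all 20 were fitted lower in DTR tendons. The summed share of 10 keratinocyte genes, led by *Krt10*, was 0.292% in WT replicate 1, 0.184% in WT replicate 2, 0.0268% in DTR replicate 3 and 0.00122% or less elsewhere, and 6 of the 10 were at 0 in some libraries. All 6 adipocyte genes were fitted lower in DTR tendons, 5 of them were below WT in each DTR library (7.85% of all genes), and DESeq2 called 4 lower (*Cfd*, *Adipoq*, *Plin1* and *Cidec*, 1.53% of all genes). Their summed share was small, with 0.0112%, 0.0149% and 0.0205% in the WT libraries but 0.00824%, 0.0142% and 0.0107% in the DTR libraries, and the most abundant, *Fabp4*, overlapped. Of 7 macrophage genes, led by *Lyz2*, which overlapped, *Cd163*, a scavenger receptor gene, was below WT in each DTR library (log2 fold change -1.52, edgeR adjusted p = 0.293, DESeq2 adjusted p = 2.70e-06), and the summed share was 0.348% in WT and 0.349% in DTR libraries. Low muscle counts were therefore a feature of DTR replicates 1 and 3, and keratin counts of WT replicates 1 and 2 and, at a lower level, of DTR replicate 3. Of 6 genes of sheath and loose connective tissue fibroblasts, led by *Cd34*, which overlapped, 5 were fitted higher in DTR tendons (51.5% of all genes). Their median log2 fold change was 0.30, and 1 was above WT in each DTR library (8.96% of all genes). *Xist*, transcribed from the inactive X chromosome of females, was counted 49303 times or more in WT replicate 2 and DTR replicates 2 and 3, and 4 times or fewer elsewhere. The part of these differences in the SLRP results was not tested beyond the fits with covariates that are given below.

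By counts, 4 SLRPs made up most of the family in both groups. *Dcn* was the 10th, *Fmod* the 11th, *Bgn* the 13th and *Lum* the 14th most abundant of all tested genes, *Aspn* was the 30th, and *Epyc* and *Omd* ranked 9770th and 10454th. Per kilobase of exon, which allows levels of different genes to be compared, the order over the 6 libraries was *Lum* (81400 normalized counts per kilobase), *Fmod* (74390), *Dcn* (53230), *Aspn* (43390), *Bgn* (35220), *Kera* (13850), *Ogn* (10420), *Prelp* (7516), *Epyc* (206.3) and *Omd* (182.6). The exon lengths join all annotated transcripts of a gene, which are longest for *Bgn* and *Dcn* (6099 and 5838 bases). Which transcripts were present was not examined, so the order per kilobase depends on these lengths. *Lum* and *Fmod* did not separate, since their levels per kilobase ran from 70180 to 105500 and from 62970 to 85580, and *Fmod* was ahead in the mean of the WT tendons and *Lum* in that of the DTR tendons. *Dcn* was above *Aspn* in the WT tendons without overlap (49620 to 57560 and 28750 to 36610), and in the DTR tendons their levels overlapped (46240 to 64070 and 44270 to 61440). *Prelp* was ahead of *Ogn* in the mean of the WT tendons and behind it in that of the DTR tendons.

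*Ogn*, *Epyc*, *Aspn* and *Kera* were higher in each of the 3 DTR tendons than in any WT tendon, by 1.35-fold (*Kera*) to 1.80-fold (*Epyc*). The 4 most abundant members by counts, *Dcn*, *Fmod*, *Bgn* and *Lum*, overlapped between the groups, as did *Prelp* and *Omd*. With Benjamini-Hochberg adjustment at 0.05, the quasi-likelihood test of edgeR called 0 of the 10 SLRPs and 0.00% of all 17496 genes in either direction. Without adjustment, 4 of the 10 (*Ogn*, *Epyc*, *Aspn* and *Kera*) had p under 0.05 and were higher in DTR tendons and 0 were lower, against 965 of all genes higher (5.52%) and 953 lower (5.45%). The same 4 were above every WT library in every DTR library, against 8.96% of all genes, and none of the 10 was below in every library, against 7.85%. DESeq2 called 3 of them higher, *Ogn*, *Epyc* and *Aspn*, against 197 of 17564 genes with an adjusted p (1.12%), and 0 lower, against 269 (1.53%). The study itself drew these 3 genes as higher from the same libraries, so their separation here is a description and not independent evidence. In all, 8 members were fitted higher and 2 lower, where 51.5% of all genes were fitted higher, with a median log2 fold change of 0.22 against 0.0082 over all genes tested.

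**Figure D1:**
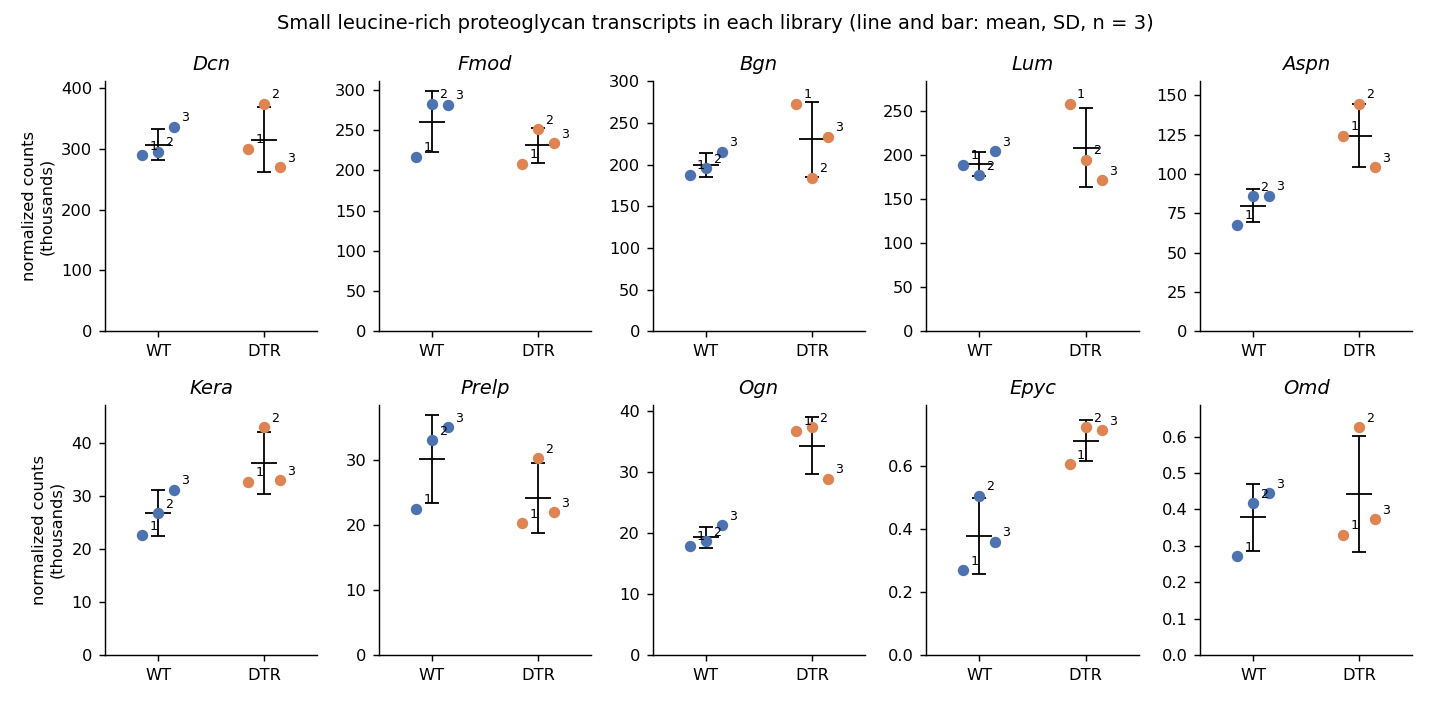
Normalized counts (linear vertical axes from 0, scaled as labelled) of the 10 SLRP genes in 3 WT (blue) and 3 DTR (orange) libraries, numbered by replicate, with the mean and SD. *Aspn*, *Ogn*, *Epyc* and *Kera* show no overlap between groups, and the points of *Dcn*, *Bgn*, *Fmod*, *Lum*, *Prelp* and *Omd* overlap.

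Decorin, the most abundant SLRP by counts, carries a chondroitin or dermatan sulfate chain and binds collagen fibrils. Normalized counts of *Dcn* were 289690, 295050 and 336030 in the WT tendons, against 299850, 374020 and 269930 in the DTR tendons. The highest and the lowest library were both DTR tendons (replicates 2 and 3), and the WT libraries lay between them. The log2 fold change was 0.036 ± 0.18 (SE), and its 95% confidence interval ran from -0.38 to 0.45. The sign rested on single libraries, with -0.0037 without WT replicate 1 and -0.11 without DTR replicate 2.

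Biglycan is the closest relative of decorin and is encoded on the X chromosome. Normalized counts of *Bgn* were 187700, 195620 and 215260 in the WT tendons, against 272970, 184040 and 233380 in the DTR tendons. DTR replicates 1 and 3 were above and DTR replicate 2 below every WT library, and the SD grew from 14191 in WT to 44554 in DTR tendons. The log2 fold change was 0.21 (standard error 0.18, 95% confidence interval -0.22 to 0.63), 0.061 without DTR replicate 1, 0.35 without DTR replicate 2 and -0.12 with the skeletal muscle level of the libraries as a covariate. With *Xist* as a covariate it was 0.27.

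Asporin, the third class I member, has a run of aspartate residues in place of glycosaminoglycan attachment sites and is known to bind collagen and TGF-β1. Normalized counts of *Aspn* were 67679, 85723 and 86188 in the WT tendons, against 124410, 144620 and 104210 in the DTR tendons. The lowest DTR library was above the highest WT library, with WT replicate 1 the lowest and DTR replicate 2 the highest of the 6. The log2 fold change was 0.64 ± 0.18, SE (edgeR adjusted p = 0.346, DESeq2 adjusted p = 0.00603), and it stayed between 0.52 and 0.75 when each library was left out in turn. Over all alternatives (edgeR, DESeq2 and limma) the adjusted p ran from 0.00603 to 0.838.

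Osteoglycin, also called mimecan, is a small class III member of fibrous connective tissues. Normalized counts of *Ogn* were 17898, 18573 and 21186 in the WT tendons, against 36697, 37225 and 28844 in the DTR tendons. Among the 10 members it had the smallest p-value, with a mean of 19219 ± 1736.6 in WT and 34256 ± 4693.6 in DTR tendons (SD, n = 3 each), a 1.78-fold difference. The log2 fold change was 0.83 ± 0.14, SE (edgeR adjusted p = 0.260, DESeq2 adjusted p = 2.70e-06). It lay between 0.77 and 0.95 when each library was left out, and edgeR called it without DTR replicate 2 (adjusted p = 0.0443). Over all alternatives its adjusted p ran from 2.70e-06 to 0.821, and with the skeletal muscle and the keratinocyte level as covariates the log2 fold change was 0.87 and 0.69.

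Epiphycan, the other class III member, is best known from growth plate cartilage. Normalized counts of *Epyc* were 267.97, 504.72 and 358.59 in the WT tendons, against 604.95, 721.26 and 712.12 in the DTR tendons. The groups did not overlap, and the WT libraries varied more (coefficient of variation 31.7%) than the DTR libraries (9.52%). Counting error was about 6.15% at the smallest raw count of 264. The log2 fold change was 0.85 (standard error 0.23, edgeR adjusted p = 0.337, DESeq2 adjusted p = 0.0174), with 0.65 without WT replicate 1 and 1.12 without WT replicate 2. Over all alternatives the adjusted p ran from 0.0174 to 0.825.

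Cartilage and bone markers were mostly fitted lower. Of 13 tested cartilage and bone markers, 4 were fitted higher and 9 lower in DTR tendons, with a median log2 fold change of -0.27. At an unadjusted p under 0.05, 2 (*Col9a1* and *Matn3*) were lower and 0 higher (5.45% and 5.52% of all genes), 2 (*Matn3* and *Phex*) were below WT in each DTR library and 0 above (7.85% and 8.96% of all genes), and DESeq2 called 1 (*Col9a1*) lower (1.53% of all genes). The list held 0.0310% of the counts in WT and 0.0317% in DTR tendons. Its most abundant gene, *Acan*, which encodes aggrecan, was among the 4 fitted higher, at 6907.3, 7218.6 and 10478 normalized counts in the WT tendons, against 12153, 5503.2 and 10868 in the DTR tendons. *Acan* was thus lowest in DTR replicate 2, where *Epyc* was highest. Other genes of the list differed in this. *Sox9* (437.16 normalized counts) and the scarce *Dmp1* (18.175), *Col9a2* (5.739) and *Bglap* (3.826) were also lowest of all libraries in DTR replicate 2. In DTR replicates 1 to 3 *Col9a1* was at 91.721, 281.24 and 97.621 and *Phex* at 15.459, 65.048 and 33.91. Both were highest in replicate 2 among the DTR libraries, as was the scarce *Ibsp* (54.525).

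Among the class II members, *Kera* alone separated the groups. Keratocan carries keratan sulfate chains in the cornea and is also made in tendon. Normalized counts of *Kera* were 22578, 26835 and 31239 in the WT tendons, against 32752, 42984 and 33056 in the DTR tendons. All 3 DTR libraries were higher, DTR replicate 1 by a small margin over WT replicate 3, and the log2 fold change was 0.43 (standard error 0.17, edgeR adjusted p = 0.440, DESeq2 adjusted p = 0.153). Between 0.29 and 0.55 remained when 1 library was left out.

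Fibromodulin and lumican compete for the same region of collagen I and act at different steps of fibril growth. Normalized counts of *Fmod* were 217210, 282930 and 281920 in the WT tendons, against 208190, 251440 and 233920 in the DTR tendons. WT replicates 2 and 3 were above all DTR libraries, and WT replicate 1 was among them (log2 fold change -0.17, standard error 0.17, 95% confidence interval -0.58 to 0.23). This value was -0.29 without WT replicate 1, -0.11 without WT replicate 2 and likewise without DTR replicate 1, -0.12 without WT replicate 3, and -0.070 with the skeletal muscle covariate. Normalized counts of *Lum* were 188910, 177530 and 204260 in the WT tendons, against 258350, 194730 and 171790 in the DTR tendons. Here DTR replicate 1 alone was above the WT range and DTR replicate 3 below it (log2 fold change 0.13, standard error 0.19, 95% confidence interval -0.31 to 0.57), and without DTR replicate 1 the log2 fold change was -0.058.

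PRELP, a basic member that binds heparan sulfate, was fitted lowest of the 10. Normalized counts of *Prelp* were 22469, 33074 and 34992 in the WT tendons, against 20268, 30261 and 21959 in the DTR tendons. As for *Fmod*, WT replicates 2 and 3 were above all DTR libraries and WT replicate 1 was within their range (log2 fold change -0.32, standard error 0.22, 95% confidence interval -0.83 to 0.18), and the value was -0.074 with the skeletal muscle and -0.45 with the keratinocyte covariate. It was -0.49 without WT replicate 1, -0.51 without DTR replicate 2, -0.20 without WT replicate 3 and -0.21 without DTR replicate 1. Osteoadherin, a keratan sulfate member of mineralized matrix, was the scarcest of the 10 in the mean over the 6 libraries, by counts and per kilobase, while in the mean of the WT tendons *Epyc* was lower (377.09 against 378.01 normalized counts). Normalized counts of *Omd* were 272.03, 417.14 and 444.86 in the WT tendons, against 330.82, 625.6 and 374.04 in the DTR tendons, with DTR replicate 2 alone above the WT range (log2 fold change 0.23, standard error 0.29, -0.099 without DTR replicate 2). With covariates its log2 fold change was 0.62 (skeletal muscle), 0.054 (keratinocyte) and 0.073 (*Xist*).

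The DTR libraries therefore did not share 1 order across the family. DTR replicate 2 was the highest of all 6 libraries for *Dcn*, *Aspn*, *Kera*, *Omd*, *Ogn* and *Epyc*, and DTR replicate 1 for *Bgn* and *Lum*. The mean-centred log2 profiles of *Aspn* and *Ogn* were the most alike of the 45 pairs, with a root mean square difference of 0.140 over the 6 libraries, followed by *Aspn* and *Kera* (0.142), *Fmod* and *Prelp* (0.155) and *Bgn* and *Lum* (0.165). *Epyc* and *Prelp* differed most (0.639). These distances describe 6 libraries and were not tested.

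**Figure D2:**
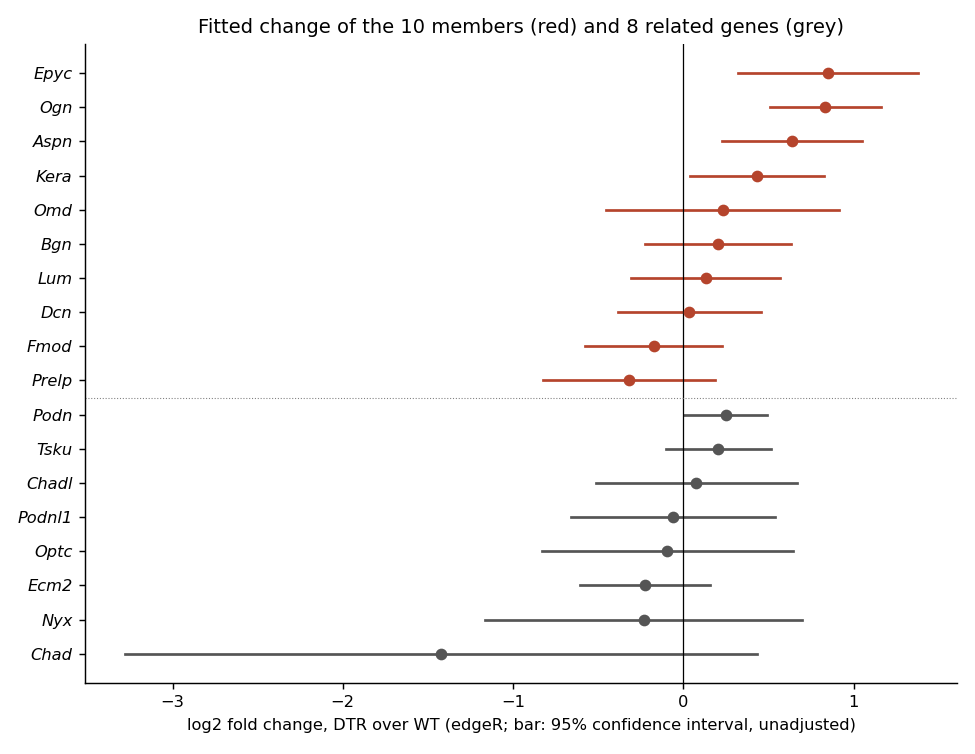
Log2 fold changes (DTR over WT, edgeR) with unadjusted 95% confidence intervals for the 10 SLRP genes (red) and 8 related genes (grey). The intervals of *Epyc*, *Ogn*, *Aspn*, *Kera* and *Podn* lie above 0, and that of *Chad* is the widest, from -3.28 to 0.43.

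The balance between members was examined within each library, which needs no scaling between libraries. The 10 genes together held 2.21%, 2.49% and 2.64% of all counts in the WT tendons, against 2.58%, 2.70% and 2.50% in the DTR tendons, with overlap between the groups. The difference of the means was 0.144 percentage points, and 0.0258 without WT replicate 1. It was 0.110 with the skeletal muscle and keratinocyte genes left out of the total. Divided by exon length, the share was 2.073%, 2.415% and 2.524% in the WT tendons, against 2.746%, 2.623% and 2.553% in the DTR tendons. On that scale each DTR library was above every WT library, DTR replicate 3 by a small margin over WT replicate 3. The means differed by 0.304 percentage points. Within the sum of undivided counts the 4 abundant genes *Dcn*, *Fmod*, *Bgn* and *Lum* took 87.07%, 85.21% and 85.61% in WT and 82.86%, 79.66% and 82.78% in DTR tendons. *Aspn*, *Ogn* and *Epyc* together took 8.46%, 9.39% and 8.89% in WT and 12.9%, 14.5% and 12.2% in DTR tendons. By counts the family's share of the library thus overlapped between the groups. Divided by exon length it did not, but only by that small margin and with lengths that join all annotated transcripts. Within the summed SLRP counts, the share of the 3 genes that the study drew as higher was larger in every DTR library, by a mean of 4.27 percentage points.

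*Aspn* provided most of that gain, with 7.15% ± 0.506 of the summed SLRP counts in WT and 10.3% ± 1.04 in DTR tendons (SD, n = 3 each). *Ogn* went from 1.72% ± 0.0538 to 2.83% ± 0.181, with little spread among the WT libraries. On the other side *Fmod* went from 23.3% ± 1.97 to 19.3% ± 2.42, and its share was below every WT library in every DTR library, at 21.4%, 25.4% and 23.3% in the WT tendons, against 16.6%, 19.9% and 21.3% in the DTR tendons. The share of *Kera* was above WT in each DTR library, with a mean of 2.40% in WT and 3.01% in DTR tendons, but overlapped once counts were divided by exon length (3.60% to 4.15% in WT and 4.08% to 5.33% in DTR tendons). The share of *Dcn* overlapped, with 26.4% to 28.6% in WT and 23.9% to 29.7% in DTR tendons. A larger share of some members lowers the share of the others, so a smaller share need not be a lower level. Normalized counts of *Fmod*, *Dcn*, *Bgn* and *Lum* overlapped between the groups. Shares are given as values, since an exact permutation test of 3 against 3 libraries cannot go below p = 0.1.

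**Figure D3:**
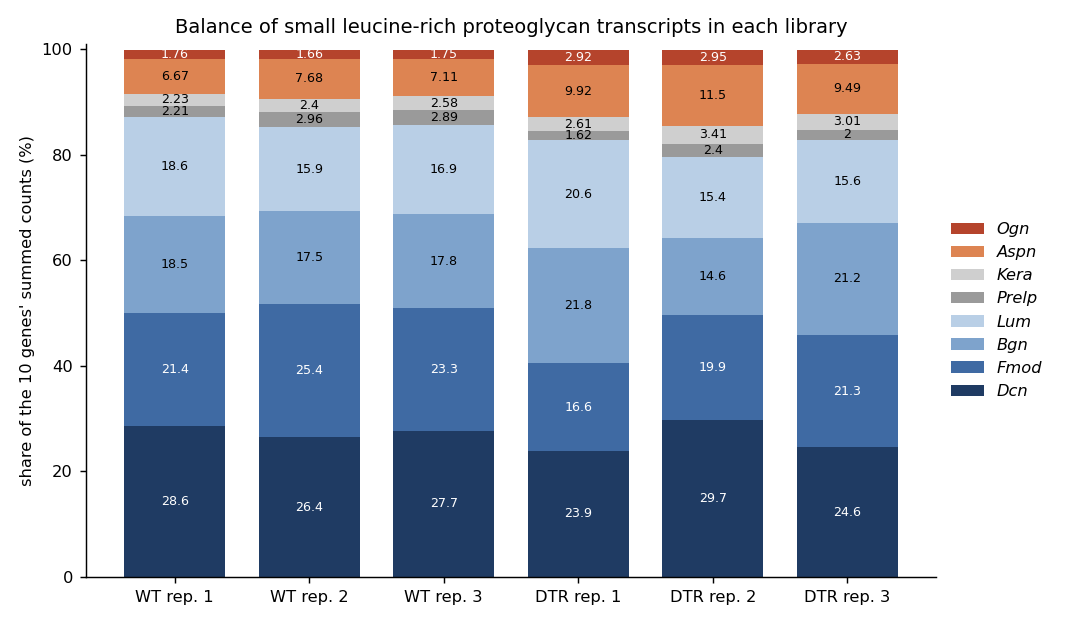
Share of each SLRP gene in the summed counts of the 10 genes (stacked bars, percent) in each of 6 libraries, with *Omd* and *Epyc* too small to show. The *Aspn* and *Ogn* segments are larger in all DTR libraries, and the *Fmod* segment is smaller.

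The ratio to *Dcn* in the same library was above WT in each DTR tendon for *Aspn*, *Ogn*, *Epyc* and *Kera* and overlapped for the other members. For *Fmod*, whose share had not overlapped, the log2 ratio to *Dcn* was -0.42, -0.061 and -0.25 in the WT tendons, against -0.53, -0.57 and -0.21 in the DTR tendons. The log2 ratio of *Ogn* to *Dcn* counts was -4.02, -3.99 and -3.99 in the WT tendons, against -3.03, -3.33 and -3.23 in the DTR tendons. For this ratio the WT libraries were nearly identical, and the DTR libraries lay 0.80 higher on average. The log2 ratio of *Aspn* to *Dcn* was -2.10, -1.78 and -1.96 in WT and -1.27, -1.37 and -1.37 in DTR tendons, and here the DTR libraries were the tighter group. By counts these means were -1.95 in WT and -1.34 in DTR tendons. Per kilobase of exon, the mean log2 ratio of *Aspn* to *Dcn* was -0.64 in WT and -0.027 in DTR tendons. A level of *Aspn* near that of *Dcn* was thus seen only per kilobase, and it depends on the long joined exon length of *Dcn*. *Bgn*, in contrast, had a ratio to *Dcn* between -0.64 and -0.59 in WT, and of -0.14, -1.02 and -0.21 in DTR replicates 1 to 3, so that the DTR libraries lay on both sides of the WT libraries.

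**Figure D4:**
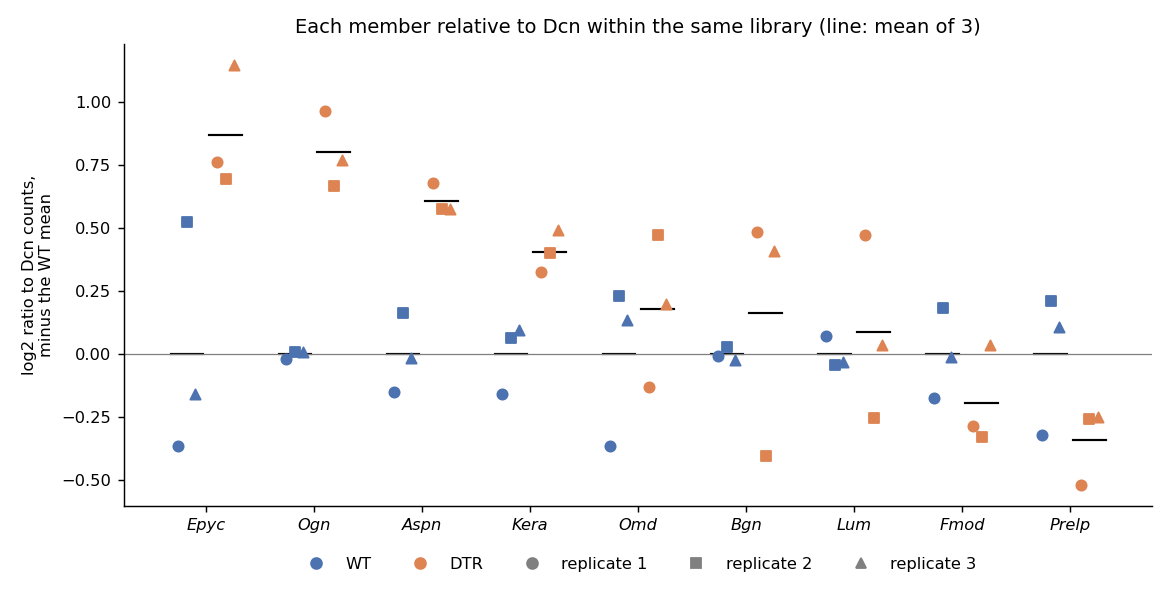
Log2 ratio of each SLRP gene to *Dcn* counts in the same library, minus the WT mean (blue, WT; orange, DTR; marker shape, replicate; line, mean of 3). The DTR points of *Epyc*, *Ogn*, *Aspn* and *Kera* lie above all WT points of the same gene, and those of *Bgn* spread above and below.

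Most SLRP genes lie in clusters, which the choice of genes did not use. In the RefSeq annotation of GRCm38.p6, *Dcn*, *Lum*, *Kera* and *Epyc* follow each other on chromosome 10, *Ecm2*, *Aspn*, *Omd* and *Ogn* on chromosome 13, and *Optc*, *Prelp* and *Fmod* on chromosome 1, in the order of their positions, with *Cenpp* overlapping *Aspn* on the opposite strand. The genome build behind the deposited counts is not given in the sources used here, so this annotation was used for the order of genes and for promoter sequences, and not to place the counts. On chromosome 13 *Aspn* and *Ogn* were higher in each DTR library, and *Omd*, which lies between them, overlapped. Set against *Omd* directly, neither was separated, with log2 ratios of *Aspn* to *Omd* of 7.60 to 7.96 in WT and 7.85 to 8.55 in DTR tendons and of *Ogn* to *Omd* of 5.48 to 6.04 and 5.89 to 6.79. For *Ecm2*, the first gene of that cluster and a matrix gene with leucine-rich repeats, normalized counts were 10411, 13953 and 15823 in the WT tendons, against 10998, 12810 and 10538 in the DTR tendons (log2 fold change -0.23, standard error 0.16, with -0.38 without WT replicate 1, -0.092 without WT replicate 3, -0.14 with the skeletal muscle and -0.37 with the keratinocyte covariate). The log2 ratio of *Aspn* to *Ecm2* counts was 2.70, 2.62 and 2.44 in WT and 3.50, 3.50 and 3.31 in DTR tendons, without overlap. On chromosome 10, *Kera* and *Epyc* were higher in each DTR library and *Dcn* and *Lum* overlapped, and on chromosome 1 the fitted values of *Prelp*, *Fmod* and *Optc* were all below 0, for *Optc* at -0.093 (standard error 0.32), which was 0.078 without WT replicate 2.

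The 250 bases before the annotated starts of *Aspn*, *Omd* and *Ogn* are shown because the first and the last of these neighbours were the SLRPs most alike across the libraries while the middle one was not. Sequences are from RefSeq, build GRCm38.p6, plus strand, 5′ to 3′, and capitals mark each CANNTG (the E-box, the class of motif that basic helix-loop-helix factors such as scleraxis bind) and each TATAAA on either strand (TTTATA in these letters).
Aspn, chr13:49544193-49544442: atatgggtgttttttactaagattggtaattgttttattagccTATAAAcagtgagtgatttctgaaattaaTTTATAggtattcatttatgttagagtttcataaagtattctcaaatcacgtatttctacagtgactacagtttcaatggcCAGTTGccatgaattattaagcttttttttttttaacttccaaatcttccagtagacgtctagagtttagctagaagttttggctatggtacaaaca
Omd, chr13:49582212-49582461: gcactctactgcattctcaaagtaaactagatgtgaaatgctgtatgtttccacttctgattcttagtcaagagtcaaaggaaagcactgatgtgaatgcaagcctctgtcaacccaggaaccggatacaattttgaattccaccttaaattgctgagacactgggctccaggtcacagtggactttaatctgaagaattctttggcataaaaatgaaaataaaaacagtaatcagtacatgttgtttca
Ogn, chr13:49607765-49608014: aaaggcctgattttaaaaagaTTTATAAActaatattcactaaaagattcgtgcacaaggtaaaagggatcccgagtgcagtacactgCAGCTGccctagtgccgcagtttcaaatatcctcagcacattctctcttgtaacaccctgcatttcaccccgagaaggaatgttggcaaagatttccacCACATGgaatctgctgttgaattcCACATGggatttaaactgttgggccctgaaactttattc
*Aspn* had 1 CANNTG, *Ogn* had 3 and *Omd* had 0, where 66.2% of 32851 RefSeq promoter windows of this length held at least 1 and 12.2% held 3 or more. TATAAA on either strand was found 2 times in *Aspn* and 2 times, in overlapping letters, in *Ogn*, and in 12.4% of all windows. Of the other members with a window, *Bgn* and *Fmod* had 1 CANNTG each, *Prelp* and *Kera* had 0, and *Epyc* had 0 before its first start and 2 before its second. *Dcn* and *Lum* were without a window. A match of letters is a description and not a binding site.

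Among 8 further genes of the family, all tested, 3 were fitted higher and 5 lower, with a median log2 fold change of -0.077 and 0 called by edgeR or DESeq2 (1 higher, *Podn*, and 0 lower at an unadjusted p under 0.05, against 5.52% and 5.45% of all genes). For *Chad*, the gene of chondroadherin, a member without glycosaminoglycan chains known from cartilage and tendon, normalized counts were 10901, 12250 and 12154 in the WT tendons, against 1197.5, 8100.3 and 3865.8 in the DTR tendons. It was lower in each DTR library, most in replicate 1 and least in replicate 2, with a log2 fold change of -1.42 (standard error 0.71, edgeR adjusted p = 0.514, DESeq2 adjusted p = 0.315). The share of skeletal muscle counts in the DTR libraries had the same order (0.382%, 2.63% and 0.714%). In the WT libraries it did not (2.91%, 2.64% and 2.13%), and *Chad* was lowest in WT replicate 1, where the muscle share was highest. In DTR replicate 2 the muscle share was within the WT range, and *Chad* was below its own WT range. The muscle level was low in DTR replicates 1 and 3 only, so it partly followed the genotype. Its part in the *Chad* values was not tested and cannot be told apart from the genotype here. With the muscle level as a covariate the log2 fold change of *Chad* was -0.50 (standard error 0.47). It was -2.14 (standard error 0.78) with *Xist* as a covariate, -1.81 with limma-voom, -0.98 without DTR replicate 1 and -2.22 without DTR replicate 2.

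For *Podn*, the gene of podocan, normalized counts were 1117.6, 1148.8 and 1113.2 in the WT tendons, against 1390.2, 1162.2 and 1462.3 in the DTR tendons, without overlap but with DTR replicate 2 close to WT (log2 fold change 0.25, standard error 0.10). With the skeletal muscle covariate the log2 fold change was 0.086 (standard error 0.12). Its unadjusted p stayed under 0.05 with RLE or upper quartile scaling, without a filter, with the keratinocyte covariate, with the muscle genes removed and without DTR replicate 2, and under no other alternative run. *Tsku*, the gene of tsukushi, overlapped (0.21, standard error 0.13). It was 0.092 without DTR replicate 1, 0.13 without WT replicate 1, 0.32 without DTR replicate 2 and -0.054 with the skeletal muscle covariate. The other 4 genes, *Optc*, *Chadl*, *Nyx* and *Podnl1*, had means of 52.2 to 228 normalized counts over the 6 libraries, and their groups overlapped.

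The collagens to which SLRPs bind were examined as a list of 19 genes, of fibrillar and fibril-associated collagens and of the beaded-filament collagen VI (*Col6a1*, *Col6a2* and *Col6a3*). By unadjusted p under 0.05, 8 were higher and 1 lower (5.52% and 5.45% of all genes), 8 were above WT in each DTR library (8.96% of all genes), and the median log2 fold change was 0.34, the highest of the partner lists. The most abundant, *Col1a2*, overlapped between groups (log2 fold change 0.32, standard error 0.21), as did *Col1a1* (0.32, standard error 0.23). Normalized counts of *Col3a1* were 671130, 600980 and 724220 in the WT tendons, against 1233700, 799910 and 873760 in the DTR tendons. It was above WT in each DTR library and highest in DTR replicate 1 (0.54, standard error 0.22, edgeR adjusted p = 0.447), the library in which *Bgn* and *Lum* were also highest.

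The enzymes that build the glycosaminoglycan chains of SLRPs were mostly fitted higher. Of 21 tested chondroitin and dermatan sulfate enzymes, 19 were fitted higher (51.5% of all genes), 5 passed an unadjusted p of 0.05 as higher and 1 (*Chst3*) as lower (5.52% and 5.45% of all genes), and 0 were called by edgeR's adjusted p or by DESeq2. For *Dsel*, an epimerase gene that turns chondroitin into dermatan sulfate, normalized counts were 8633.9, 7182.8 and 8386.9 in the WT tendons, against 13204, 9778.2 and 9544.3 in the DTR tendons. Each DTR library was higher (log2 fold change 0.43, standard error 0.15, edgeR adjusted p = 0.403). The second epimerase gene, *Dse*, did not overlap either (0.25, standard error 0.083), and *Csgalnact2*, an enzyme of chain initiation, overlapped (0.13, standard error 0.12).

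Among 8 tested enzymes of keratan sulfate and of tyrosine sulfation, the median log2 fold change was 0.069, with 1 higher and 1 lower at an unadjusted p under 0.05 (5.52% and 5.45% of all genes). *B4galt1*, a galactosyltransferase gene, was above WT in each DTR library (0.35, standard error 0.14). The tyrosine sulfotransferase genes *Tpst1* and *Tpst2*, whose enzymes act on fibromodulin among other proteins, overlapped (0.15 and 0.052, standard errors 0.13 and 0.12). Of 14 proteinase genes, 12 were fitted higher (51.5% of all genes), with a median log2 fold change of 0.25, and 3 were higher and 0 lower at an unadjusted p under 0.05 (5.52% and 5.45% of all genes). *Mmp2* was above WT in each DTR library (0.29, standard error 0.19), though DTR replicate 2 (171330 normalized counts) was close to WT replicate 2 (170400). *Mmp13* and *Mmp14* overlapped and were highest in DTR replicate 1.

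Receptors and growth factors that SLRPs bind showed no common direction. Of 20 genes, 13 were fitted higher (51.5% of all genes) and 7 lower, with a median log2 fold change of 0.030, and 2 were higher and 1 lower at an unadjusted p under 0.05 (5.52% and 5.45% of all genes). The most abundant were *Itgb1* (0.29, standard error 0.15) and *Lrp1* (0.25, standard error 0.18), which overlapped, and *Cd44*, which was above WT in each DTR library (0.38, standard error 0.12, edgeR adjusted p = 0.360). Over the 5 partner lists (19, 21, 8, 14 and 20 genes tested) edgeR called 0 at an adjusted p under 0.05. DESeq2 called 5 higher (*Col5a1*, *Col5a3*, *Col24a1*, *Egfr* and *Adamts1*) and 1 lower (*Col9a1*), against 1.12% and 1.53% of all genes.

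**Figure D5:**
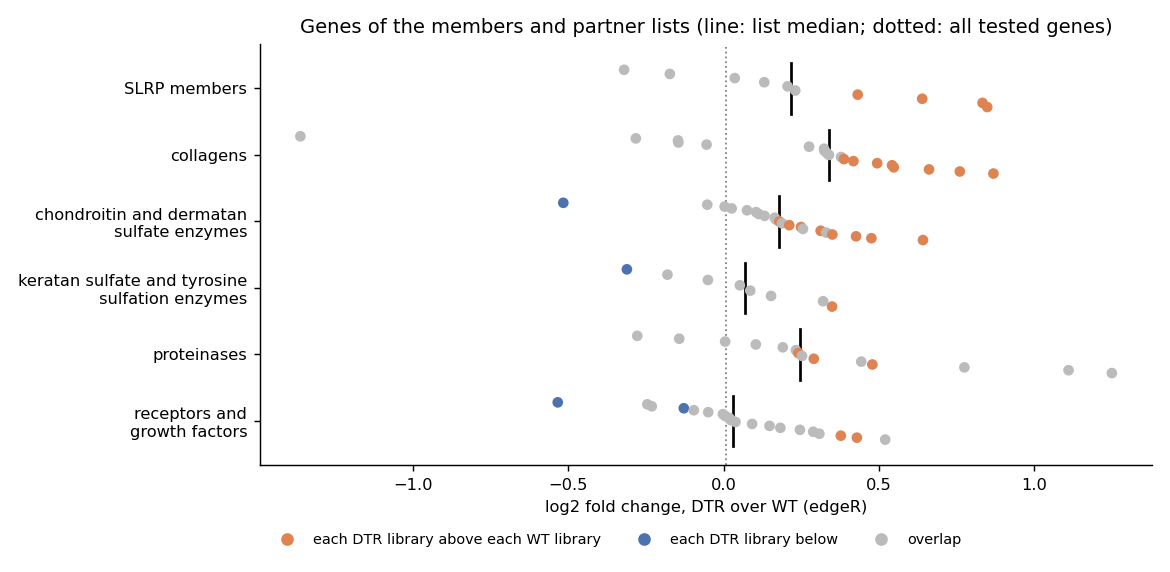
Log2 fold changes (DTR over WT, edgeR) of the SLRP genes and of 5 partner lists, 1 point per tested gene, coloured by whether all DTR libraries lay above (orange) or below (blue) all WT libraries. Black lines mark list medians, from 0.030 for receptors and growth factors to 0.34 for collagens, and the dotted line the median of all tested genes, 0.0082.

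Outside the 10 members, the genes whose mean-centred profile came nearest to a member were picked by distance among 14399 genes averaging 50 or more normalized counts. *Hmgn5* and *Scaper* were nearest to *Dcn* (root mean square difference 0.0285 and 0.0288 on the log2 scale), and *Mfap5*, a microfibril gene, and *Nkain1* to *Aspn* (0.106 and 0.107). *Nkain1* was also nearest to *Ogn* (0.0698), followed by the sulfatase gene *Arsj* (0.117). For *Epyc* the nearest, *Dbx2* and *Fbn1*, the fibrillin-1 gene, were farther away (0.201 and 0.203). Normalized counts of *Nkain1* were 142.1, 173.26 and 176.7 in the WT tendons, against 307.11, 315.67 and 249.7 in the DTR tendons, the same order of libraries as *Ogn*, with DTR replicate 2 highest and WT replicate 1 lowest.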

How the data were processed

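The authors demultiplexed the single-end reads, cleaned them with FastP and assigned them to genes with featureCounts, and their deposited counts are raw whole numbers. They also deposited a signal table, which was checked to be these counts divided by 1 constant per library, equal to the DESeq2 size factor (0.973 to 1.06). The submitters' processing notes name DESeq2 1.22.1. The aligner, genome build, annotation and strand setting are not given in the sources used here. *Aspn*, *Epyc* and *Prelp* share exon bases with an opposite-strand gene (*Cenpp*, *Gm10754* and *Gm15851*), which had at most 138 counts in a library. Among the relatives, *Chadl* shares exon bases with *L3mbtl2* on the opposite strand, which had 560 to 716 counts in a library, against 73 to 126 for *Chadl*.

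Tests used edgeR 4.0.16 under R 4.3.3 (filterByExpr, TMM, robust quasi-likelihood fit, genotype as the single term, Benjamini-Hochberg over 17496 genes, threshold 0.05), limma 3.58.1 and DESeq2 1.42.0. The standard error of a log2 fold change was derived from its F statistic. Exon lengths came from GENCODE vM21, which matched 92.8% of listed genes and 99.1% of counts. Members and gene lists were chosen with earlier results of these data known. Named genes were all members, 8 relatives, *Scx*, *Hbegf*, the 3 most abundant genes of each partner list and any that edgeR called, the most abundant marker of each cell type list named, and the 2 nearest profiles of *Dcn*, *Aspn*, *Ogn* and *Epyc*. Genes named beside a count of calls, *Chst3*, *Matn3*, *Phex*, collagen VI genes and those called by DESeq2, were added after their values were seen. So were *Sox9*, *Dmp1*, *Col9a2*, *Bglap*, *Ibsp*, *Thbs4* and *Tppp3*. The macrophage, adipocyte, endothelial and loose connective tissue lists, led by *Lyz2*, *Fabp4*, *Pecam1* and *Cd34*, had median log2 fold changes of -0.0017, -2.46, -0.045 and 0.30. Replicates differed far beyond sampling noise (chi-square per degree of freedom 36.6 to 189.8), so counting error alone did not account for the spread between mice. This value is taken over many genes and does not speak for single scarce ones such as *Optc*, with 35 to 70 counts in a library. The tests were first run on simulated data with known answers. With both tools false calls were a larger share of all calls than the threshold of 0.05. That share was larger with DESeq2 than with edgeR, so calls by DESeq2 alone are read with caution. The simulation was a single run, with the spread of each gene taken from edgeR's fit and log2 changes of 1 or 2. It does not measure the error of the calls on single genes here. Alternatives were other scalings, filters, tools and covariates, the replicate block and leaving out each library.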

Additional observations from a re-analysis of the deposited data

How the results depend on the processing

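With edgeR, 0 SLRPs, 0 of the 8 relatives and 0 partner genes were called, and DESeq2 called 3 SLRPs, 5 partner genes higher and 1 lower, and 197 genes higher and 269 lower in all. Without a filter on low counts edgeR called 1 SLRP (*Ogn*), 2 partner genes higher, and 45 genes higher and 38 lower in all. With 1 library left out, 0 to 1 SLRPs, 0 to 2 partner genes higher and 0 to 1 lower, and 0 to 103 genes higher and 0 to 441 lower in all were called, each maximum without DTR replicate 2. The replicate block called 1 gene lower and no SLRP, with a median member log2 fold change of 0.20 against 0.22. Same-numbered libraries did not deviate together (correlations across genes of -0.188, -0.149 and -0.684), and no library correlated best with its own number. These deviations were taken from the mean of 3 libraries per group, so they cannot decide whether the numbers pair the mice. The members' median was 0.41 with the skeletal muscle covariate, with *Bgn* at -0.12 and *Lum* at -0.042, 0.11 with the keratinocyte covariate, and 0.15 (without WT replicate 1) to 0.31 with 1 library left out. With the keratinocyte covariate *Dcn* was at -0.088 and *Lum* at -0.0092, and with both covariates, chosen after seeing the data, *Bgn* was at -0.16 and *Lum* at -0.17. The cause of these shifts was not tested. With 1 library left out, the log2 fold change ranged from -0.11 to 0.14 for *Dcn*, -0.058 to 0.25 for *Lum* and -0.099 to 0.40 for *Omd*. The difference in share of the summed SLRP counts ranged from -0.0033 to 3.58 percentage points for *Bgn*, -1.58 to 0.993 for *Lum* and -0.0034 to 0.0082 for *Omd*, and that in the log2 ratio to *Dcn* from -0.11 to 0.26 for *Lum* and from -0.00068 to 0.34 for *Omd*. Divided by exon length, the share of *Lum* differed by -0.439. *Aspn*, *Ogn*, *Epyc* and *Kera* kept a positive and *Fmod* and *Prelp* a negative log2 fold change under all alternatives run. The number of members with an unadjusted p under 0.05 was 3 with the keratinocyte covariate, with the *Xist* covariate and without WT replicate 2. It was 4 in the main fit and under every other alternative. Over all genes tested, 1280, 2214 and 994 passed in those 3 fits, against 1918 in the main fit. With 3 tendons per group the spread between mice limits the precision, and the effect of depth was not tested.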
